A study of Mus musculus with 6 samples.

Results

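The sterol and fatty acid synthesis genes comprised 38 genes, chosen by name for their role in lipid metabolism, with earlier results of these data known. They held 17 enzymes of the sterol pathway, 5 genes of sterol sensing, 10 enzymes of fatty acid synthesis, desaturation and elongation, and 6 genes of sterol transport, efflux and storage. Of these, 36 were among the 19938 genes with a probe set of their own, whereas Nr1h2 and Soat1 are not analysed here. Only genes whose signal came up to the array median in 1 array or more entered the test, so that a gene bright in a single genotype was kept. Thus 35 members were tested among 9924 genes, and Fads2, which read 2.92 to 3.25 in all 6 arrays, was not. Acaca, Fdft1 and Idi1 had more than 1 probe set, and the brightest was used.

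Expression was measured in freshly isolated, resting CD8+ T cells (CD8-TC) from the spleen of male ICR mice aged 6 weeks, with 1 array per mouse. The groups were 3 WT mice (genotype Runx3 +/+) and 3 mice that lacked the transcription factor Runx3 (genotype Runx3 -/-), and no other allele or agent is named for any of them. ICR is an outbred stock, and individual mice differ in background. The labels describe anti-CD8 bead selection for all samples and, for Runx3-/- cells, an additional FACS step that took out CD11c+ dendritic cells, while another label speaks of sorting in general. The number of purification steps and the genotype therefore cannot be told apart. All signals are RMA values on the log2 scale, and a difference is Runx3-/- minus WT.

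Cells make cholesterol from acetyl-CoA through mevalonate, farnesyl diphosphate, squalene and lanosterol. When sterol in the membrane of the endoplasmic reticulum is low, the escort protein Scap carries the transcription factors Srebf1 and Srebf2 to the Golgi, where they are cleaved and released to switch on the enzymes. The Insig proteins hold Scap back when sterol is plentiful. Fatty acid synthesis shares the acetyl-CoA pool, supplied by Acly, and is driven largely by Srebf1. In the opposite direction, the oxysterol receptors Nr1h2 and Nr1h3 (LXR beta and LXR alpha) induce the sterol exporters Abca1 and Abcg1. T cells raise both synthesis pathways when they leave the resting state and divide, while macrophages depend on the LXR and efflux arm to handle lipid from engulfed cells.

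Across genes, the lowest correlation within a genotype was 0.985 and the highest between genotypes 0.971. The probe set of Runx3 did not separate the genotypes, at 6.99 to 7.30 in WT and 7.06 to 7.64 in Runx3-/- arrays, and the sources do not say whether it lies in the deleted part, so that it does not check the labels. The T cell markers were bright in every array, with Cd3g at 11.20 and 11.38 and Cd8a at 11.10 and 11.06 as means of WT and Runx3-/- arrays. Of the 9 tested, 2 rose (Zap70 and Lat), while 5.63% of all genes tested rose. Lists of markers of other cells were lower in Runx3-/- arrays, and their values are given beside the members they bear on.

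Promoter sequence was examined for what the members share beyond their names. RefSeq windows of 250 bases before and 50 bases after a transcription start were at hand for 30 of the 38 members. Not held were Abcg1, Fads1, Fdft1, Fdps, Scd1, Scd2, Sqle and Stard4. The CCAAT box (letters CCAAT, either strand), the site of the factor NF-Y that works beside the Srebf factors, lay in a window of all 14 sterol enzymes searched and of 4 of 5 sensing genes, 4 of 7 fatty acid enzymes and 1 of 4 transport genes, against 41.1% of all 27025 genes. A strict sterol regulatory element (TCACNCCAC, either strand) was found in 1 member, Hmgcs1, and in 1.44% of all genes. The RUNX hexamer was searched on either strand as TGTGGT or with C in the third place, in each case also with C as its last letter, and it can overlap the sterol element. It lay in the windows of 17 of 30 members (56.7%), against 48.7% of all genes. By role these were 6 of 14 sterol enzymes, 3 of 5 sensing genes, 6 of 7 fatty acid enzymes and 2 of 4 transport genes. A gene counted once if any of its windows held a match, so that genes with several windows had more chances. A match of letters is not a binding site.

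The windows of 3 members are shown, Nr1h3 and Abca1 because they are the members below that fell and have a window, and Hmgcs1 because it holds the sterol element. All are from RefSeq, build GRCm38.p6, and run 5′ to 3′ on the strand of the gene. Nr1h3 lies at chr2:91195067-91195366 on the minus strand, and this first of its 2 windows holds no RUNX hexamer. Abca1 lies at chr4:53159846-53160145 on the minus strand, and the capitals mark a RUNX hexamer that begins at position -191 from the start. Hmgcs1 lies at chr13:119690101-119690400 on the plus strand, and the capitals mark the sterol element, at position -137, and 4 CCAAT boxes on the opposite strand, which read as ATTGG.
Nr1h3: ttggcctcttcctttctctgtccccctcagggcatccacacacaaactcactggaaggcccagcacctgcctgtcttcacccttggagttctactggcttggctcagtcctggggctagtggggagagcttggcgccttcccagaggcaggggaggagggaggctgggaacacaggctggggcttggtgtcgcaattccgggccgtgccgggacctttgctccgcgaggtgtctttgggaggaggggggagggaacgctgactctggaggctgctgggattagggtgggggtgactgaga
Abca1: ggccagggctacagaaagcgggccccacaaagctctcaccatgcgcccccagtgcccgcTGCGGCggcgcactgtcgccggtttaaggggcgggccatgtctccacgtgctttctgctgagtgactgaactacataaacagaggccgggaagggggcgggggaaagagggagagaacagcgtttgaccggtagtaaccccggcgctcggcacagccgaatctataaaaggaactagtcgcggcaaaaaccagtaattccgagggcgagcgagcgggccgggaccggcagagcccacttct
Hmgcs1: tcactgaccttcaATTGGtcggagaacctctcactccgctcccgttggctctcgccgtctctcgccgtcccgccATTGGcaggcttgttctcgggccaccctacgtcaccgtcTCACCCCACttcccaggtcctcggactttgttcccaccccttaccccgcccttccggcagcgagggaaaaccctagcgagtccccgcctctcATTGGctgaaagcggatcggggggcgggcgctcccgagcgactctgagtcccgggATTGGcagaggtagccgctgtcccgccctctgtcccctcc

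Most of the pathway did not differ detectably between the genotypes. Of the 35 members tested, 3 fell in Runx3-/- CD8-TC (the desaturase Scd1, the receptor Nr1h3 and the exporter Abca1), 1 rose (the squalene epoxidase Sqle), and 31 did not pass (limma adjusted p of 0.0940 or higher). These 4 calls are 11.4% of the members tested, while 11.6% of all genes tested passed, 6.00% lower and 5.63% higher, so that the share called was close to that of all genes. At the fold and p stated in the methods (at least 1.5-fold, unadjusted p under 0.05), Scd1 and Nr1h3 passed and no member did so upward. The Runx3-/- signal of Nr1h3 lay under the array medians, so that it entered only through WT and its fold is not measured. Of all genes tested, 8.07% met this criterion in either direction, and 4.95% of all genes tested did so as lower. For 28 of the 31 members that did not pass, the 95% interval of the difference lay within 1.5-fold in either direction. The intervals of Fasn, Hmgcs1 and Insig2 reached further, so that a change of that size was not bounded for them. Called or not, the interval lay within 1.5-fold for 82.9% of the members and for 73.9% of all genes tested. Mvk, Pmvk, Tm7sf2 and Elovl6 read near the array medians, where differences are compressed, so that their intervals do not bound a change of RNA. The genotypes did not overlap in 7 members, 5 of them lower and 2 higher, against 33.6% of all genes, 16.2% lower and 17.4% higher.

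**Figure D1:**
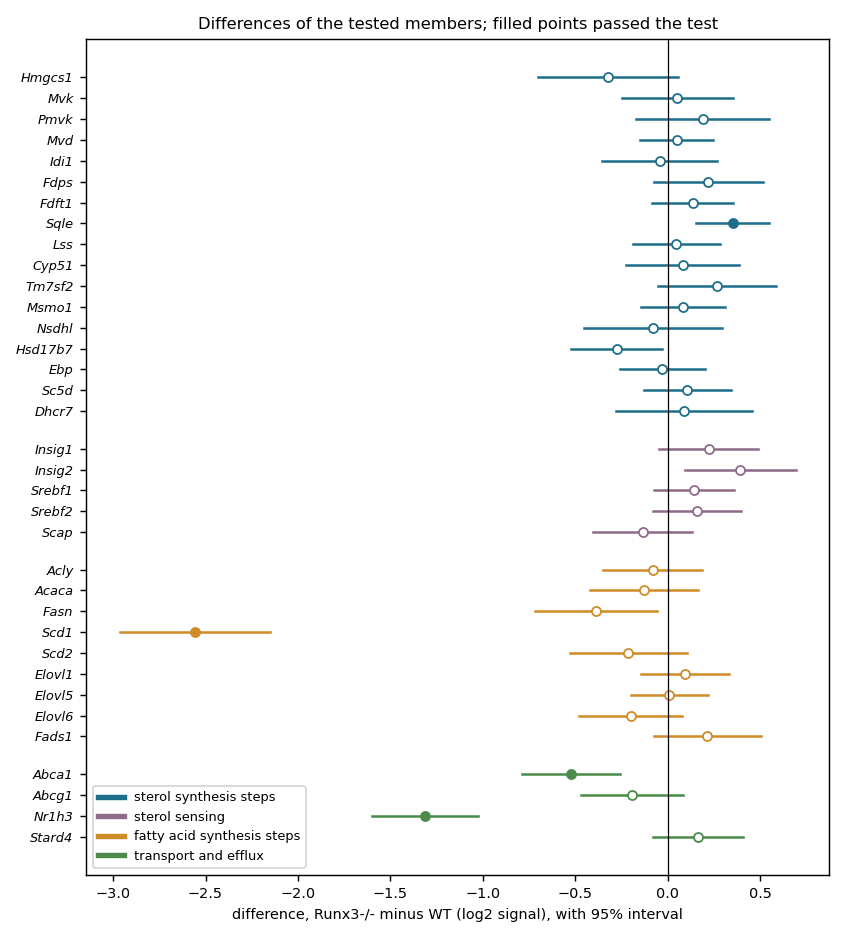
Difference between Runx3-/- and WT arrays on the log2 scale (horizontal axis) for each of the 35 tested members (vertical axis), with the 95% interval from limma, coloured by role. Filled points passed the test. Scd1 (-2.56) and Nr1h3 (-1.32) lie far to the left, whereas the 17 sterol enzymes lie between -0.32 and 0.35. For Nr1h3, whose Runx3-/- signal lay under the array medians, the difference is no measure of the fold.

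Among the 17 enzymes of sterol synthesis, Sqle rose, 0 fell in limma (Hsd17b7 had an unadjusted p under 0.05) and 16 did not pass. Their median difference was 0.08 on the log2 scale (0.01 over all genes tested), with 12 higher and 5 lower. The mean signal of the 17 enzymes was 5.40 to 5.53 in the WT arrays and 5.45 to 5.55 in the Runx3-/- arrays, which overlap.

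The upstream steps, from acetyl-CoA units to farnesyl diphosphate, did not move together. Hmgcs1, which makes HMG-CoA at the entry of the pathway and whose promoter is shown above, gave -0.32 ± 0.17 (SE, n = 3 per group). Its interval ran from -0.70 to 0.06. Its signal was 7.06, 7.15 and 6.92 in WT against 7.04, 6.77 and 6.36 in Runx3-/- arrays. Replicate 1 of the Runx3-/- group lay inside the WT range and the others below it. The mevalonate kinase Mvk (0.05), the phosphomevalonate kinase Pmvk (0.19), the decarboxylase Mvd (0.05), the isomerase Idi1 (-0.04) and the farnesyl diphosphate synthase Fdps (0.22) had differences from -0.04 to 0.22. A second, dimmer probe set of Idi1 gave 0.06, of the opposite sign.

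At the branch to sterols, Sqle oxidizes squalene and is a rate-limiting, sterol-responsive step. The WT arrays gave 4.83, 4.87 and 4.76 for Sqle, and the Runx3-/- arrays 5.21, 5.15 and 5.16. All 3 Runx3-/- values were above all WT values, and the SD was 0.06 in WT and 0.03 in Runx3-/- mice. The rise was 0.35 ± 0.09 (SE, n = 3), or 1.28-fold (limma adjusted p = 0.0357, 95% interval 0.15 to 0.55). The call was not stable, since it was lost with any single array left out (adjusted p from 0.0716 without WT replicate 2 to 0.101 without WT replicate 1), under quantile normalization (adjusted p = 0.0993), with an intensity trend and robust moderation (adjusted p = 0.0534) and with a block for the replicate number (adjusted p = 0.0547). The size stayed between 0.29 and 0.38 in all of these. The squalene synthase Fdft1, the step before, gave 0.13 with groups that did not overlap and did not pass (adjusted p = 0.401), and its dimmer probe set gave 0.07.

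The enzymes that make and convert lanosterol did not pass. The lanosterol synthase Lss gave 0.05, the demethylase Cyp51 0.08, the sterol reductase Tm7sf2 0.26, the methylsterol oxidase Msmo1 0.08, the dehydrogenase Nsdhl -0.08, the isomerase Ebp -0.03, the desaturase Sc5d 0.11 and Dhcr7, which catalyses the final reduction in one branch, 0.09. Hsd17b7, a ketoreductase that works with Nsdhl and Msmo1, had the lowest p among them. It was at 5.48, 5.34 and 5.24 in the WT group, compared with 5.11, 5.18 and 4.94 in the Runx3-/- group. The groups did not overlap, but the difference of -0.28 ± 0.11 (SE) did not pass (adjusted p = 0.139).

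Of the genes that sense sterol, 0 of 5 passed in limma (1, Insig2, at an unadjusted p under 0.05), while 4 of 5 were higher. Insig2, which retains Scap in the endoplasmic reticulum, measured 5.66, 5.93 and 5.57 in WT mice and 5.92, 6.25 and 6.18 in mice without Runx3. Only the highest WT value lay above the lowest Runx3-/- value. The difference was 0.39 ± 0.13 (SE, adjusted p = 0.0940, 95% interval 0.09 to 0.69). Its paralog Insig1, itself an Srebf target, was at 7.16, 7.31 and 6.90 in the WT group and at 7.31, 7.37 and 7.36 in the Runx3-/- group. The WT arrays varied more (SD 0.21) than the Runx3-/- arrays (SD 0.03), and the difference of 0.22 ± 0.12 did not pass. Srebf1 (0.14), Srebf2 (0.16) and Scap (-0.13) differed by less, each with groups that overlapped.

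Among the enzymes of fatty acid synthesis, Scd1 fell, 0 rose in limma and 8 of the 9 tested did not pass. The median was -0.13. No member that was higher reached an unadjusted p under 0.05. Scd1, the stearoyl-CoA desaturase that makes oleate and palmitoleate from saturated fatty acids, moved most. Its WT signals were 6.01, 6.31 and 6.77, and its Runx3-/- signals 3.89, 3.73 and 3.80. The lowest WT array was more than 2 log2 units above the highest Runx3-/- array. The difference was -2.56 ± 0.18 on the log2 scale, or 5.89-fold lower (limma adjusted p = 0.000104, 95% interval -2.96 to -2.15), and it ranked 25 by size among the falls of all 9924 genes tested. It passed under all 14 alternatives that were fitted for it. The Runx3-/- values lay close to the array medians of 3.45 to 3.53.

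The paralog Scd2, which catalyses the same reaction, had 7.48, 7.46 and 7.65 in the 3 WT mice and 7.54, 7.39 and 7.03 in the 3 Runx3-/- mice. The groups overlapped and the difference of -0.21 ± 0.14 did not pass (adjusted p = 0.364, 95% interval -0.53 to 0.11). Another paralog, Scd3, was below the filter, at 2.62 to 2.79.

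**Figure D2:**
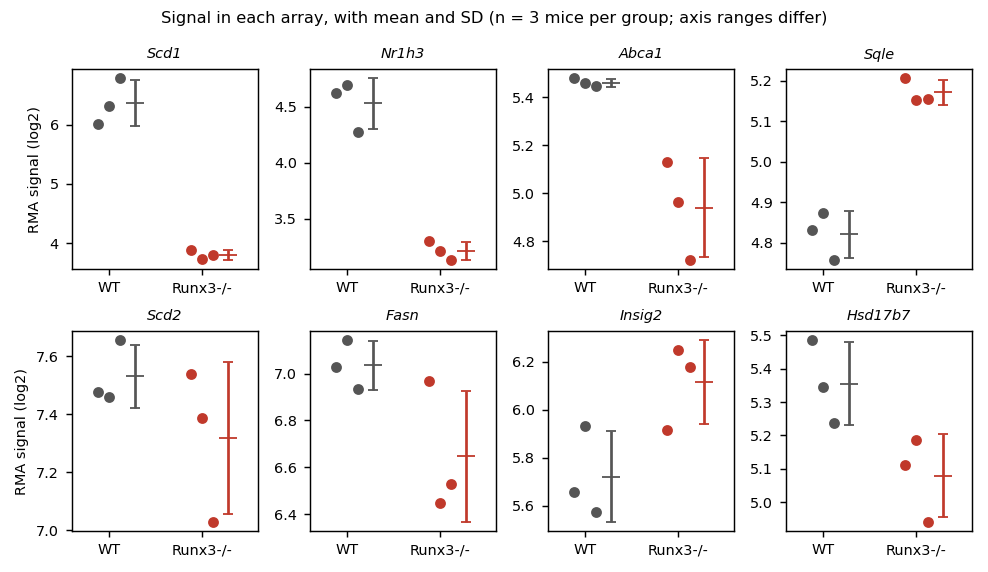
Signal of 8 members by array (vertical axis, log2 of RMA), WT in grey and Runx3-/- in red; bars give mean and SD over 3 mice. Axis ranges differ between panels. Scd1 falls from 6.36 to 3.81 and Nr1h3 from 4.53 to 3.21, whereas the genotypes overlap in Scd2, Fasn and Insig2.

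None of the other fatty acid enzymes passed, and Fasn had the lowest p among them. Fasn, the synthase that assembles palmitate, showed 7.03, 7.14 and 6.93 in WT against 6.97, 6.45 and 6.53 in Runx3-/- arrays. Replicate 1 of the Runx3-/- group lay within the WT range and the others below it. The difference was -0.39 ± 0.14 (SE, adjusted p = 0.124), and it passed only without that replicate (-0.55, adjusted p = 0.0275). Acly, which supplies acetyl-CoA from citrate, gave -0.08, and the carboxylase Acaca, the committed step, gave -0.13, with -0.31 at its dimmer probe set. The elongases Elovl1, Elovl5 and Elovl6 gave 0.09, 0.01 and -0.20, and Fads1, a desaturase of polyunsaturated chains, gave 0.21.

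Set side by side, the sterol enzymes had a median difference of 0.08 and the fatty acid enzymes one of -0.13. Averaged over the 9 fatty acid enzymes, the signal was 6.63 to 6.67 in WT and 6.16 to 6.40 in Runx3-/- arrays. Without Scd1 the remaining 8 read 6.66 to 6.70 and 6.46 to 6.71, which overlap, and their median was -0.10. The separation of the group mean between genotypes was thus not seen without Scd1.

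In sterol transport and efflux, 2 of 4 members tested fell and 0 rose (limma; 0 of the higher members at an unadjusted p under 0.05). For Nr1h3 the signal was 4.62, 4.69 and 4.27 in WT mice and 3.30, 3.21 and 3.13 in Runx3-/- mice. All Runx3-/- values were below the median of all probe sets in the array, so that Nr1h3 entered the test only through the WT arrays. The fitted difference was -1.32 ± 0.13 (SE, n = 3; limma adjusted p = 0.000502) and is no measure of the fold, since the Runx3-/- signal lay under the level set for the test. It passed under the 13 alternatives fitted for it and was left untested by the 75th percentile filter. Abca1, which loads cholesterol onto apolipoproteins, stood at 5.48, 5.46 and 5.45 in WT, and at 5.13, 4.96 and 4.72 without Runx3. The WT arrays were nearly identical (SD 0.02), and all Runx3-/- arrays lay below them.

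The difference of Abca1 was -0.52 ± 0.12, or 1.44-fold lower (limma adjusted p = 0.0256). The call was lost when WT replicate 1 (adjusted p = 0.0823) or 2 (0.0656) was left out, and likewise for Runx3-/- replicate 2 (0.0712) or 3 (0.0604), with a difference from -0.62 to -0.41 over all arrays left out. The second exporter, Abcg1, was at 8.14, 8.13 and 8.24 in WT mice, next to 8.12, 8.08 and 7.73 in Runx3-/- mice. Its groups did not overlap, but they nearly touched, and -0.19 ± 0.12 did not pass (adjusted p = 0.341). The sterol carrier Stard4 gave 0.16.

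Scd1 (-2.56) and Fasn (-0.39, not past the test), described above, are also known as genes that LXR induces. Of others, Srebf1 gave 0.14, and Mylip, a ubiquitin ligase that was named after its values were seen, gave -0.02. Lpcat3, which inserts polyunsaturated chains into phospholipids, was higher by 0.36 without overlap of the groups, short of the threshold (adjusted p = 0.0745).

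Further genes of these pathways gave a mixed picture. Of 14 other sterol genes tested, 3 rose and 0 fell in limma (of the lower ones, Nus1 at -0.25 had an unadjusted p under 0.05). Stard3, a cholesterol-binding protein of late endosomes, rose by 0.46 ± 0.09 (SE, limma adjusted p = 0.0126), with WT arrays at 6.60 to 6.62 and Runx3-/- arrays at 7.01 to 7.13. Npc2, which hands cholesterol on within the lysosome, rose by 0.44 (adjusted p = 0.0390), and Mbtps1, the Golgi protease that makes the first cut in the Srebf precursors, rose by 0.47 (adjusted p = 0.0397). Lbr, a nuclear membrane protein with sterol reductase activity, was at 0.33 (adjusted p = 0.0793).

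Of 14 other fatty acid genes tested, 1 fell and 0 rose in limma (Lpcat3 and Mlxip, both higher, had an unadjusted p under 0.05). Elovl7, an elongase of saturated chains, was at 4.54, 4.63 and 4.12 in WT, and at 3.89, 3.90 and 3.38 in Runx3-/- mice. It fell by 0.71 ± 0.18 (adjusted p = 0.0404). Hsd17b12, the ketoreductase of the elongation cycle (-0.28), and Mlxip, a glucose-sensing factor (0.27), had groups that did not overlap and did not pass, each with an unadjusted p under 0.05. Of the 28 genes in these lists, 4 passed (14.3%), against 11.6% of all genes.

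Nr1h3 and Abca1 are known for high expression in macrophages, and markers of other cells moved in the same arrays. Of 18 macrophage markers tested, 17 fell and Cd163 did not pass, and the median was -2.37. Their mean signal was 6.37 to 6.61 in WT and 3.97 to 4.59 in Runx3-/- arrays. Slc40a1, the iron exporter, fell from 9.32 to 6.30 and Hmox1, the heme oxygenase, from 8.92 to 5.21 (means, n = 3). Fcgr3 and Vsig4 were below the filter in all arrays. In bulk RNA, fewer cells of a type and less RNA per cell cannot be told apart.

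Markers of B cells and erythroid cells were lower as well. All 13 B cell markers tested fell (median -2.30), with means of 6.34 to 7.06 in WT and 4.20 to 4.38 in Runx3-/- arrays, and the brightest, Cd79a and Cd79b, fell from 8.37 to 5.17 and from 8.26 to 5.97. Of 7 erythroid markers, 5 fell and 1 rose (Gata1), with means of 4.80 to 5.51 and 3.46 to 3.67, and the brightest, Alas2 and Car2, fell from 6.91 to 3.53 and from 6.76 to 5.06. Epor, Klf1 and Trim10 were below the filter. Slc4a1, Car1 and Rhag read under the array medians in all Runx3-/- arrays, and Gata1 in all WT arrays. They entered the test only through the other genotype. The macrophage markers Mertk, Marco and Cd163 and the B cell marker Ebf1 likewise entered only through the WT arrays. Cd163 did so through WT replicate 2 alone (4.30), with 2.87 to 3.03 in the other arrays. For these genes the difference is no measure of the fold. Of 13 dendritic cell markers 4 fell (Wdfy4, Ciita, Fscn1 and Ly75), with a mean signal of 7.22 ± 0.46 in WT and 6.48 ± 0.45 in Runx3-/- arrays (SD, n = 3), which overlap. Of the 13, 12 were lower (median -0.86), and 8 had an unadjusted p under 0.05 in limma. The brightest, Cd74 (10.97 and 10.09) and H2-Aa (10.59 and 9.99), were among these 8 but did not pass.

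Within the WT group, Scd1 was lowest in replicate 1 and highest in replicate 3, as was the B cell mean (6.34 and 7.06). The dendritic cell mean was also highest in replicate 3 (7.75, against 6.96 and 6.95 in replicates 1 and 2), while the erythroid mean was highest in replicate 1 (5.51). Nr1h3 was lowest in replicate 3 and highest in replicate 2, as was the macrophage mean (6.37 and 6.61). Abca1 was nearly level across the WT arrays. In the Runx3-/- group the macrophage mean was lowest in replicate 1 (3.97) and highest in replicate 3 (4.59), whereas Abca1 was highest in replicate 1 and lowest in replicate 3. The Runx3-/- values of Nr1h3 were all under the array medians, so that their order is not read. In the Runx3-/- group Scd1 was highest in replicate 1 (3.89), where the B cell mean was lowest (4.20). No relation was tested over 3 arrays per group. The part of other cells in the differences of Scd1, Nr1h3, Abca1 and Elovl7 was not tested. The mean of the 17 sterol enzymes differed by 0.05 between the same arrays, compared with -2.19 for the macrophage markers and -2.45 for the B cell markers.

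**Figure D3:**
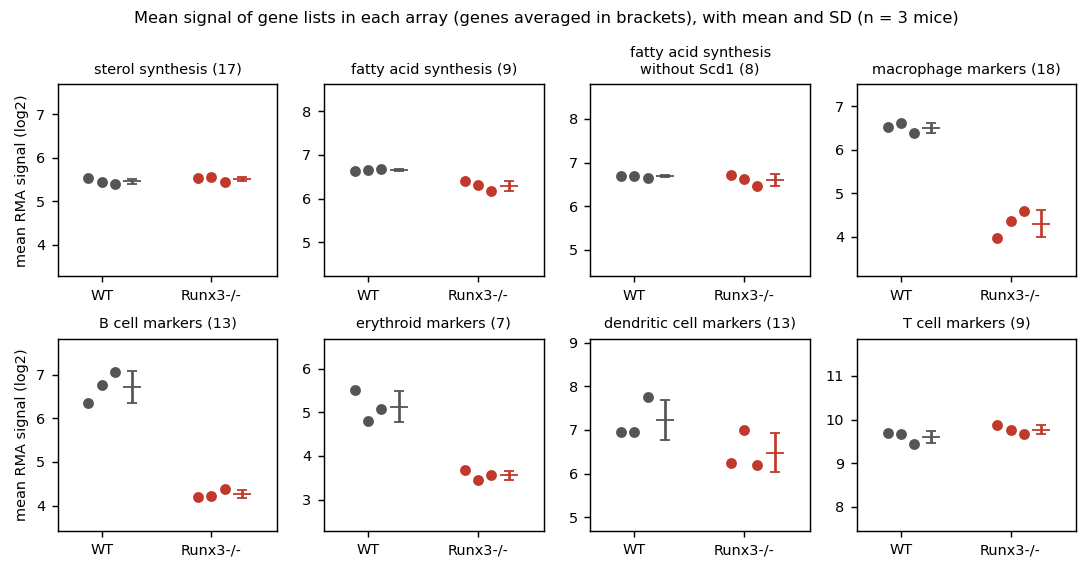
Mean RMA signal (vertical axis, log2, with the same span in every panel) over the tested genes of a list (number in brackets) by array, WT in grey and Runx3-/- in red; bars give mean and SD over 3 mice. The sterol enzymes stay at 5.40 to 5.55 in all 6 arrays, while the macrophage and B cell markers drop to between 3.97 and 4.59.

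The members were also read against the state of the cells. Of 15 cell cycle genes tested, none passed in limma (Mcm3, at -0.55, had an unadjusted p under 0.05), with means of 5.57 to 6.02 in WT and 5.36 to 5.95 in Runx3-/- arrays. Of the 15, 14 were lower (median -0.21), against 48.9% of all genes tested. The lowest value of a member fell in Runx3-/- replicate 3 for 12 of 35 members and in WT replicate 3 for another 12. Over all genes tested these arrays held the lowest value for 26.3% and 23.1%. Hmgcs1, Abca1, Abcg1, Scd2 and Nsdhl were among those lowest in Runx3-/- replicate 3, where the median over all genes tested was 5.75 against 5.84 to 5.87 in the other arrays.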

How the data were processed

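RNA of resting CD8-TC from 3 WT and 3 Runx3-/- mice was hybridised to Affymetrix mouse Gene ST 1.0 arrays, and the values that the authors deposited are log2 signals. Per the methods and the submitters' processing notes, the arrays were normalized in Partek with RMA, a multi-array summary of probe signal, and a correction for GC content. No version or genome build is named there. RMA brings all arrays to a shared distribution of signal, so that a change of total RNA per cell is not measured, and probe sets near background give compressed differences.

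GEO's platform annotation gave exactly 1 gene to 21789 of 35399 probe sets, and 1621 with several genes were not named. A gene was represented by its brightest probe set. It was tested when this probe set reached the median of all probe sets (3.45 to 3.53) in at least 1 array, which left 9924 genes. Differences, Runx3-/- minus WT, were fitted in R 4.3.3 by limma 3.58.1 (lmFit and eBayes, two-sided, without covariates). Benjamini-Hochberg adjustment ran over all 9924 genes, and an adjusted p under 0.05 passed. Errors are SD over mice or SE of a difference, and intervals are 95% intervals of the difference from limma. In simulations of this comparison over 9924 genes with 200 changed, limma called 30.0% of changes of 0.5, 90.7% of changes of 1 and 99.8% of changes of 2 (log2), and 4.82% of its calls were false. The simulated noise was independent and followed the variances that limma fitted, so that the false share mainly restates the threshold. In the data 1154 genes passed, more than were changed in the simulations, so that recovery may differ. The number of arrays limits the precision. Alternatives covered the filter, the scaling, the moderation of variances, array weights, a block for the replicate number, the fold and p of the methods, the choice of probe set and leaving out each array. The members and gene lists were chosen with earlier results of these data known. Values per array were given for members past the threshold and for the 2 members with the lowest p in each group, with the 4 lowest p in the lists of other pathway genes and the 2 brightest genes in each marker list. Promoter windows came from RefSeq (GRCm38.p6) and were searched on both strands.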

Additional observations from a re-analysis of the deposited data

How the results depend on the processing

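The number of members that fell was between 2 and 4 under all alternatives, against 3, and Scd1 passed in each that was fitted. The number that rose was 1, and 0 under a 75th percentile filter (which leaves Sqle untested), quantile normalization, an intensity trend with robust moderation, the replicate block, the methods' fold and p, and in the range from 0 to 0 with each array left out. The cause was not tested, except that fewer arrays also lower the precision and Sqle did not reach 1.5-fold. The median of the sterol enzymes stayed between 0.02 and 0.10 and that of the fatty acid enzymes between -0.20 and -0.07. Of the values for single members under alternatives, 95 stayed on their side of the threshold, 14 no longer passed and 1 passed newly, and 0 reversed in sign. Without moderation of variances Abca1 had a limma adjusted p of 0.125, and 86 genes rose and 92 fell of all tested, against 559 and 595. The 75th percentile filter gave 467 and 367, and leaving out an array gave 232 to 436 and 323 to 500.

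Replicate numbers in the titles were shared by the genotypes. Deviations from the group means correlated at 0.18, 0.03 and -0.00014 for same-numbered arrays and at -0.14 to 0.08 for the others. So few values do not show a pairing and cannot exclude one. With the replicate block 565 genes rose and 519 fell, against 559 and 595, and Sqle was the only member whose call changed (adjusted p = 0.0547). Array signal close to the median of all probe sets limits Nr1h3, Elovl7, Mvk, Pmvk, Tm7sf2, Elovl6 and the Runx3-/- values of Scd1.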
